A study of Mus musculus with 48 samples.

Results

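The genes described here were chosen by name, with earlier results of these data known, from the 58913 genes measured in the study. They are 34 mouse genes of DNA replication and mitosis. They comprise 16 replication genes, which license origins, synthesise DNA or supply its precursors, and 18 mitosis genes, which drive entry into mitosis, build the spindle or separate the chromosomes. All 34 were found in the deposited tables, each under 1 Ensembl identifier. RNA was sequenced from the pituitary, the left inguinal (number 4) mammary gland and the hypothalamus of lactating mice of the outbred ICR stock, with 8 heat and 8 control libraries per tissue, 48 in all. Heat-stressed dams were kept at 36 °C and control dams at 25 °C, both at 55% relative humidity. All dams were 10 weeks old and were killed at the end of treatment on day 13 of lactation; the labels used here do not give the length of the exposure. The labels call the libraries of a group biological replicates, and p-values measure the spread between those libraries.

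Cells copy their DNA once per division. In G1 phase the MCM2-7 helicase is loaded onto origins by Cdc6 and Cdt1, and in S phase the helicase unwinds DNA while the sliding clamp Pcna holds the polymerases in place. Cyclin B with Cdk1 then starts mitosis, aurora and polo kinases build the spindle, and the anaphase-promoting complex with Cdc20 ends it. Transcripts of the mitosis genes are abundant in dividing cells and scarce in resting ones. The pituitary keeps a small dividing population, the mammary gland in full lactation consists mostly of secretory cells, and in the adult hypothalamus most dividing cells are glial precursors. In a whole tissue, fewer dividing cells and less RNA per cell cannot be told apart.

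Fragments recovered per library numbered 10891501 to 17244280 in pituitary, 11585891 to 17808033 in mammary gland and 16270621 to 22160135 in hypothalamus. FPKM, the deposited unit, is fragments scaled by gene length and by a factor for each library. That factor did not follow the fragment total alone and differed between tissues. On a gene of 1 kb, 3 fragments stood for 0.322 to 0.600 FPKM in mammary libraries. They stood for 0.110 to 0.167 FPKM in pituitary and 0.105 to 0.143 FPKM in hypothalamus libraries. Marker sums were high where the tissue labels put them, and some varied widely between libraries. Luminal mammary epithelium markers summed to 67854 FPKM or more in every mammary library, and neuron markers to 199.6 FPKM or more in every hypothalamus library. In pituitary libraries, anterior hormone markers summed to 686 to 1922 FPKM, and markers of corticotrophs and melanotrophs to 2178 to 100077 FPKM. Luminal mammary epithelium markers reached 48.1 FPKM in the highest heat hypothalamus library, against a median of 4.38 FPKM in that group. Replicate numbers 1 to 3 and 4 to 8 formed separate sets in every tissue, and the labels do not call them batches. In mammary gland, T and B cell markers were high in heat libraries 4, 5, 6 and 8 and in control library 5.

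Promoters of 29 of the 34 genes were matched by symbol in the RefSeq table of mouse build GRCm38.p6, as windows of 300 bases from 250 before to 50 after the transcription start. E2F factors bind TTTCCCGC, TTTGGCGC, TTTGCCGC or TTTCGCGC and are known regulators of replication genes. The CHR element, written TTTGAA or TTCGAA, is known from promoters of mitosis genes, where it often lies near CCAAT boxes bound by NF-Y. Searched on both strands, an E2F motif was found in 7 of 14 replication promoters, 1 of 15 mitosis promoters and 2.60% of the 27025 genes with a window. A CHR motif was found in 3 of 14 replication promoters, 13 of 15 mitosis promoters and 21.7% of all genes. CCAAT was found in 9 of 14, 14 of 15 and 41.1%. The motifs are short, and a match describes the letters only. The promoters of the replication genes Mcm3, Mcm7 and Uhrf1 and of the mitosis genes Top2a, Cdk1 and Ccnb1 are shown because these 6 genes passed the limma or limma-voom test of heat against control, in pituitary or mammary gland, described in the following paragraphs. Uhrf1 lies on the plus strand and the others on the minus strand, and all are written 5′ to 3′ in the direction of the gene, with E2F, CHR and CCAAT matches of either strand in capitals. The windows are chr1:20820263-20820562 for Mcm3, chr5:138171834-138172133 for Mcm7, chr17:56304063-56304362 for Uhrf1, chr11:99024140-99024439 for Top2a, chr10:69352863-69353162 for Cdk1 and chr13:100786437-100786736 for Ccnb1. Mcm7 and Uhrf1 have several windows, and the first that holds an E2F match is shown. In Mcm7 the E2F match TTTCGCGC overlaps a CCAAT match.
Mcm3: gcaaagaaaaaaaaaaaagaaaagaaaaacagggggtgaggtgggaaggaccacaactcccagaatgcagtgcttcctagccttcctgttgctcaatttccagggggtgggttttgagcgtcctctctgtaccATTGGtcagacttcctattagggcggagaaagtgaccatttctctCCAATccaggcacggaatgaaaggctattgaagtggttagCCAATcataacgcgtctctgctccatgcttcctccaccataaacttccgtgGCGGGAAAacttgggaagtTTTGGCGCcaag
Mcm7: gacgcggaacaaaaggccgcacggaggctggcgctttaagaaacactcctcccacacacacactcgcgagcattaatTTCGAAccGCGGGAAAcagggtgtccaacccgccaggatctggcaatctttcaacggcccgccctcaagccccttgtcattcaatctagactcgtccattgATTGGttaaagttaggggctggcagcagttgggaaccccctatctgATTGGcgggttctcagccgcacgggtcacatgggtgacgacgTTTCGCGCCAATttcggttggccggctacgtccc
Uhrf1: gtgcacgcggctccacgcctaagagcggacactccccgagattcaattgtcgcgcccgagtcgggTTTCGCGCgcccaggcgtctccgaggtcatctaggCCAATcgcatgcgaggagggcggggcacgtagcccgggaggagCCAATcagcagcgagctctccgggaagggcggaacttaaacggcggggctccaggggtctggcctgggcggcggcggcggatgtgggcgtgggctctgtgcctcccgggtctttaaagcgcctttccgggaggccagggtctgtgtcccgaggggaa
Top2a: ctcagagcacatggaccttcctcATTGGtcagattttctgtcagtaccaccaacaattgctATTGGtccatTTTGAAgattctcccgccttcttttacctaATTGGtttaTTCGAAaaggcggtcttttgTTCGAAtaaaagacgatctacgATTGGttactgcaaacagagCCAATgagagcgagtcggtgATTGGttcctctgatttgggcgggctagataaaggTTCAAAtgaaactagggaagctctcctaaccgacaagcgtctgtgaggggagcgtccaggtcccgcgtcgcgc
Cdk1: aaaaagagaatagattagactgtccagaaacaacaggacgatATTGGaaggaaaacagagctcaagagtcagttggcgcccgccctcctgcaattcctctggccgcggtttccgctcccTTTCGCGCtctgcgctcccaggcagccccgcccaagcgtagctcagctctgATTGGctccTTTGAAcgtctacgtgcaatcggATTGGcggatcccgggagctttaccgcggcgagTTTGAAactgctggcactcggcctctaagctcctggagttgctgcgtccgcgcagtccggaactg
Ccnb1: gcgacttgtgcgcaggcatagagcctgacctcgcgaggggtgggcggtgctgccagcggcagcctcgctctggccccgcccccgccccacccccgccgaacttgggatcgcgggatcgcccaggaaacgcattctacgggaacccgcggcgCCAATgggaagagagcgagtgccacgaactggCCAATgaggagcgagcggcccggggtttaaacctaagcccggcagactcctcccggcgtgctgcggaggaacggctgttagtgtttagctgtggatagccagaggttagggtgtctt
Mcm3 held 2 E2F and 3 CCAAT matches and 0 CHR matches, and Top2a held 4 CHR, 6 CCAAT and 0 E2F matches. Cdk1 was the only mitosis gene of the 15 with an E2F match, and it also held 2 CHR and 3 CCAAT matches. Mcm7 held 2 E2F, 1 CHR and 3 CCAAT matches. The Uhrf1 window shown held 1 E2F, 2 CCAAT and 0 CHR matches. Ccnb1 held 2 CCAAT matches and 0 of the other motifs, and with Birc5 it was 1 of 2 mitosis genes without a CHR match.

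In pituitary most of the genes had lower means in heat than in control libraries. All 18 mitosis genes and 13 of the 16 replication genes had a lower mean in heat. The summed level of the 18 mitosis genes had a lowest, median and highest of 4.51, 6.11 and 12.1 FPKM in heat libraries, against 8.35, 9.74 and 12.2 FPKM in control libraries. The summed level of the 16 replication genes was 28.2, 30.0 and 35.5 FPKM in heat libraries, against 33.5, 35.4 and 37.0 FPKM in control libraries. The groups overlapped in both sums. Only 9 replication genes and 1 mitosis gene entered the test on FPKM, and 1 of them passed, where 3.79% of all genes tested did. With a test on fragments 4 of the 34 genes passed, where 2.65% of all genes tested did.

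Levels were low, and this decided what could be tested. On the log2(FPKM + 1) scale, where genes with a mean of at least 1 FPKM were tested by limma with Benjamini-Hochberg adjustment over 14094 genes, only 9 replication genes and 1 mitosis gene entered. Mcm3, with a mean of 1.26 FPKM over both groups, was just inside this limit and Cdt1, at 0.990, just outside. FPKM values were therefore also turned back into whole fragments and tested by limma-voom, a test for counts, over 19110 genes with a mean of at least 5 fragments, and all 34 genes entered there. That test was chosen with results of these data known.

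Mcm3 (ENSMUSG00000041859), a subunit of the MCM2-7 helicase, was the 1 gene past the threshold of 0.05 among the 10 tested with limma. Its lowest, median and highest levels were 0.830, 1.00 and 1.30 FPKM in heat libraries, against 1.15, 1.57 and 1.87 FPKM in control libraries. All 8 heat libraries lay below the control median, and the ranges overlapped. Its mean was 1.01 ± 0.153 FPKM in heat and 1.51 ± 0.245 FPKM in control (SD, n = 8 each), from 84.4 and 140 fragments per library, a ratio of 0.672. The difference was −0.31 ± 0.07 (SE) on the log2(FPKM + 1) scale with adjusted p = 0.0262, and −0.55 ± 0.13 by limma-voom with adjusted p = 0.0263. Of all genes tested with limma in pituitary 2.37% were called higher, 1.42% lower and 3.79% in either direction, beside 0 and 1 of the 10 genes described here. None of those 10 was free of overlap between groups, against 0.802% of all tested genes higher and 0.362% lower. The limma call was lost in 6 of 16 fits without 1 library, namely without heat replicates 5 or 6 or control replicates 2, 4, 5 or 8, with adjusted p up to 0.0554, and in 1 fit of all 48 libraries (0.194).

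The other helicase genes were closer to the control level. Mcm2, Mcm4, Mcm5 and Mcm6 had limma differences of −0.14, −0.16, −0.13 and −0.14, with adjusted p of 0.341 to 0.440. Mcm7 stood on the other side, at 4.46, 4.88 and 5.41 FPKM in heat libraries and 3.92, 4.49 and 5.08 FPKM in control libraries, a difference of 0.11 with adjusted p = 0.336. Pcna, the sliding clamp, was at 7.02, 8.13 and 9.31 FPKM in heat libraries, against 8.54, 9.36 and 10.3 FPKM in control libraries. All 8 heat libraries lay below the Pcna control median, and the difference of −0.18 ± 0.07 had adjusted p = 0.151 with limma. Over the 9 tested replication genes the median difference was −0.14 and 8 were negative, beside a median of 0.005 and 48.8% negative over all tested genes.

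The remaining replication genes were measured on fragments. Rrm2, the S phase subunit of ribonucleotide reductase, was at 0.148, 0.261 and 0.429 FPKM in heat libraries, against 0.266, 0.438 and 0.726 FPKM in control libraries, all 8 heat libraries below the control median. Its limma-voom difference was −0.78 ± 0.25 with adjusted p = 0.120. The licensing factor Cdt1 had −0.57 ± 0.18 (adjusted p = 0.119) and the GINS helicase subunit gene Gins2 −0.48 ± 0.18 (0.181), both by limma-voom. Gins2 shares 67.3% of its exon bases with the antisense gene Gse1 and the flap endonuclease gene Fen1 84.2% with Gm10143 and Tmem258, so their levels are uncertain; the strand used in counting is not given in the sources used here. Positive limma-voom differences were seen for Mcm7, the thymidylate synthase gene Tyms (0.10) and the licensing factor Cdc6 (0.28), none past the threshold. The median over the 16 replication genes was −0.21 and 13 were negative, and 1, Mcm3, was called lower, where 1.6% of all genes were called higher, 1.06% lower and 2.65% in either direction.

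In the fragment test 3 of 18 mitosis genes fell, where 1.06% of all genes were called lower and 1.6% higher. Cdk1 (ENSMUSG00000019942), the kinase that starts mitosis, was at 0.110, 0.199 and 0.352 FPKM in heat libraries, against 0.257, 0.360 and 0.588 FPKM in control libraries. All 8 heat libraries lay below its control median, with 22.2 fragments per heat library and 47.9 per control library on average. By limma-voom the difference was −0.95 ± 0.22 with adjusted p = 0.0252. Ccnb1 (ENSMUSG00000041431), the cyclin B1 partner of Cdk1, was at 0.0317, 0.108 and 0.264 FPKM in heat libraries, against 0.133, 0.254 and 0.397 FPKM in control libraries. In 7 of 8 heat libraries it lay below the control median, and the limma-voom difference was −1.33 ± 0.33 with adjusted p = 0.0341. Its mean rested on 10.1 fragments per heat library and 26.9 per control library. Top2a (ENSMUSG00000020914), the topoisomerase that untangles chromosomes, was at 0.193, 0.285 and 0.649 FPKM in heat libraries, against 0.467, 0.539 and 0.828 FPKM in control libraries. The limma-voom difference was −0.81 ± 0.21 with adjusted p = 0.0468, and 7 of 8 heat libraries lay below the control median. All 3 sets of ranges overlapped.

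These calls lay near the threshold, and each was lost in some of the fits without 1 library. Without 1 library at a time, limma-voom called 0 to 4 mitosis genes. Cdk1 was lost in 3 of 16 such fits (without heat replicates 6 or 7 or control replicate 5, adjusted p up to 0.0537), Ccnb1 in 11 (up to 0.0796) and Top2a in 13 (up to 0.101). Both Ccnb1 and Top2a kept the call without heat replicates 2, 3 or 8, and Ccnb1 also without control replicates 7 or 8. The calls also depended on the kind of test. In limma on log2(FPKM + 0.1) over genes with a mean of at least 0.1 FPKM, 0 mitosis genes passed, with −0.70 for Cdk1 (adjusted p = 0.0523), −0.78 for Ccnb1 (0.0787) and −0.65 for Top2a (0.107). Mcm3 kept its call there (−0.51, 0.0321), where 1.3% of all genes were called higher and 0.866% lower. At an unadjusted p under 0.05 limma-voom gave 14 of 18 mitosis genes and 5 of 16 replication genes, beside 15.8% of all genes.

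The other 15 mitosis genes were all negative by limma-voom and none passed. Cdc20, the activator of the anaphase-promoting complex and the only mitosis gene above the FPKM limit, was at 0.441, 0.906 and 2.25 FPKM in heat libraries, against 1.14, 1.62 and 2.55 FPKM in control libraries. Its limma difference was −0.38 ± 0.15 with adjusted p = 0.189. The spindle checkpoint kinase gene Bub1b had −0.86 (adjusted p = 0.124), the chromosomal passenger gene Birc5 −0.79 (0.109) and the proliferation marker Mki67 −0.50 (0.163), all by limma-voom. The kinesin gene Kif11 had the most negative value, −1.45 ± 0.61, from 4.38 and 7.75 fragments per heat and control library, and was listed at 0 in 2 heat libraries. Prc1, which bundles the spindle midzone, was nearest to the control level by its means, with a ratio of heat to control of 0.894. Over the 18 mitosis genes the median limma-voom difference was −0.69, beside −0.004 and 50.7% negative over all tested genes.

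**Figure D1:**
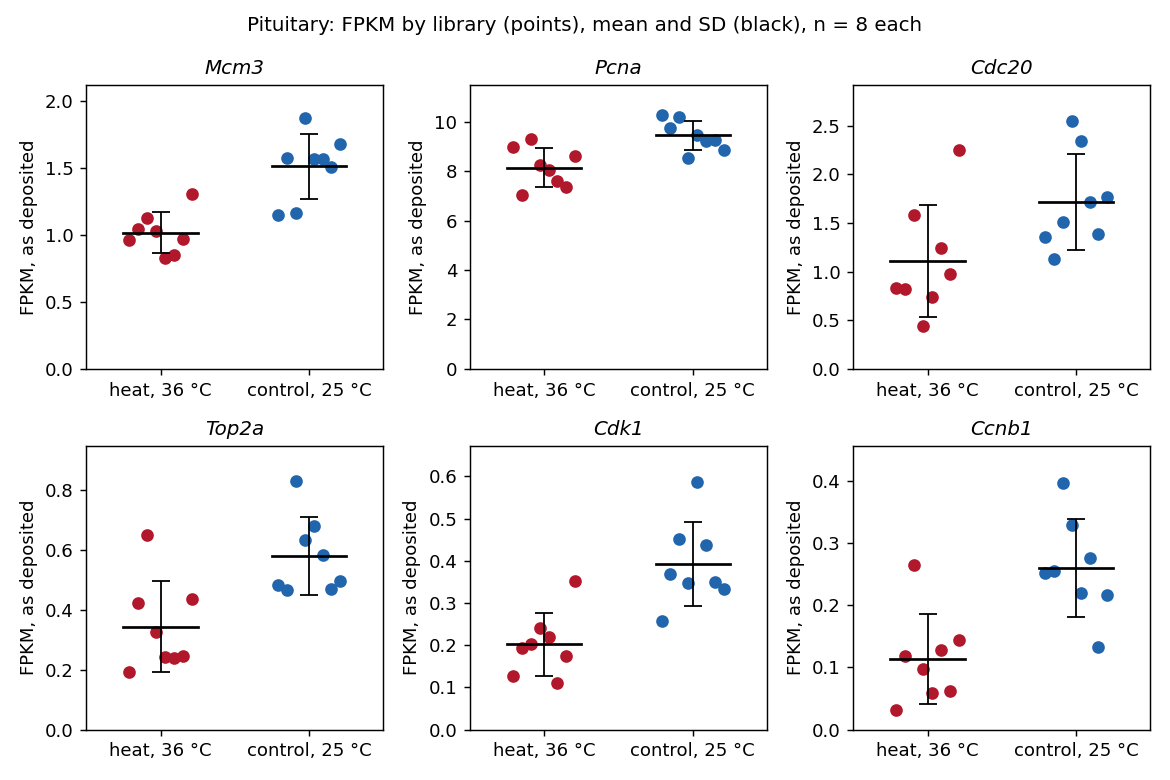
FPKM as deposited of 6 genes in the 8 heat (left, red) and 8 control (right, blue) pituitary libraries; points are libraries, black lines the mean and SD. Mcm3, Pcna and Cdk1 lay below the control median in all 8 heat libraries, Cdc20, Top2a and Ccnb1 in 7 of 8, and the groups overlapped in all 6.

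In pituitary the direction held within both sets of library numbers for most of the genes. All 18 mitosis genes and 11 replication genes had a lower mean log2(FPKM + 1) in heat among numbers 1 to 3 and again among numbers 4 to 8, where 31.8% of the 19110 genes did. With a term for these sets, limma-voom called the same 4 genes (Mcm3, Cdk1, Ccnb1 and Top2a), with adjusted p of 0.00856 to 0.0217, where 5.53% of all genes were called higher, 3.66% lower and 9.19% in either direction.

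Heat replicate 8 went against the group, with the highest heat level of Plk1 (1.75 FPKM), Ube2c (1.13) and Aurkb (0.603), above the control highest of 1.11, 0.718 and 0.373. These encode the polo kinase, the ubiquitin-conjugating enzyme of the anaphase-promoting complex and the aurora kinase of the chromosomal passenger complex.

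Markers of the pituitary lobes also moved with the groups. The 8 markers of the neurointermediate lobe summed to 19.9, 298 and 567 FPKM (lowest, median and highest) in heat libraries, against 3.22, 165 and 245 FPKM in control libraries. The 7 anterior hormone cell markers summed to 686, 983 and 1490 FPKM in heat libraries, against 1142, 1399 and 1922 FPKM in control libraries. Of the lobe markers, Lhx2 and Nkx2-1 were at 0 in 1 heat library each and Avp and Nkx2-1 in 1 control library each. Stem and folliculostellate markers summed to 26.7 to 40.2 FPKM in heat and 25.8 to 37.9 FPKM in control libraries. With a lobe score in the limma-voom model Mcm3 (−0.59, adjusted p = 0.0185), Cdk1 (−1.08, 0.0106) and Rrm2 (−0.93, 0.0470) were called, while Top2a (−0.74, 0.0737) and Ccnb1 (−1.19, 0.0616) were not; 2.08% of all genes were called higher and 1.27% lower in that model. Heat replicate 3 and control replicate 1 had the lowest lobe sums of their groups. Without both, limma-voom called Mcm3 (−0.62), Cdk1 (−1.04), Ccnb1 (−1.50), Top2a (−0.97) and Bub1b (−1.08), with adjusted p of 0.0127 to 0.0333, where 2.03% of all genes were called higher and 1.27% lower.

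In mammary gland the replication genes were higher in heat libraries by their means, and 1 of them, Mcm7, passed with limma. Means were higher in heat for 14 of 16 replication genes and 10 of 18 mitosis genes. The summed replication level was 23.6, 39.7 and 46.1 FPKM in heat libraries, against 26.0, 29.7 and 37.6 FPKM in control libraries. The summed mitosis level was 11.2, 17.2 and 25.0 FPKM in heat libraries, against 7.27, 13.5 and 20.3 FPKM in control libraries. Both sums overlapped between groups.

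Mcm7 (ENSMUSG00000029730), a helicase subunit whose promoter is shown above, was at 2.22, 2.60 and 3.63 FPKM in heat libraries, against 1.32, 1.63 and 2.11 FPKM in control libraries. The groups did not overlap, which held for 0.58% of the 12586 genes tested in this direction and 0.445% in the other. The mean was 2.77 ± 0.528 FPKM in heat and 1.66 ± 0.270 FPKM in control (SD, n = 8 each), from 82.9 and 47.6 fragments per library, a ratio of 1.67. The limma difference was 0.51 ± 0.10 with adjusted p = 0.00714, and the limma-voom difference 0.75 ± 0.14 with adjusted p = 0.00582. Of all genes 2.84% were called higher by limma, 2.47% lower and 5.31% in either direction; among the genes described here 1 of 10 tested replication genes and 0 of 4 tested mitosis genes passed. At an unadjusted p under 0.05 there were 2 and 1 of them, a share close to the 21.5% of all genes. The Mcm7 call held in all 16 fits without 1 library, with adjusted p up to 0.0172. Of the Mcm7 exon bases 12.6% are shared with other genes, among them Cops6 and Ap4m1 on the other strand and Mir25 and Mir93 on the same strand.

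The other helicase genes had wider spreads. Mcm4 was at 1.02, 2.06 and 3.12 FPKM in heat libraries, against 0.597, 1.24 and 1.77 FPKM in control libraries, with a limma difference of 0.42 and adjusted p = 0.170. Mcm3 was at 0.534, 1.67 and 3.05 FPKM in heat libraries, against 0.427, 0.926 and 1.57 FPKM in control libraries, with 0.37 and adjusted p = 0.315. For both genes some heat libraries lay above the control range and others within it. Pcna had the highest replication level, 15.6 ± 2.65 FPKM in heat and 14.8 ± 1.53 FPKM in control (SD, n = 8 each), with a limma difference of 0.07 and adjusted p = 0.744. Rrm2 was the only tested replication gene with a negative limma difference, −0.07, with adjusted p = 0.856. The median over the 10 tested replication genes was 0.24 and 9 were positive, beside −0.010 and 51.8% negative over all tested genes.

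On fragments 2 replication genes rose, where limma-voom called 2.7% of 14585 genes higher, 2.06% lower and 4.76% in either direction: Mcm7 and Uhrf1 (ENSMUSG00000001228), which guides maintenance DNA methylation behind the fork. Uhrf1 was at 0.437, 1.61 and 2.30 FPKM in heat libraries, against 0.132, 0.491 and 0.908 FPKM in control libraries, and 7 of 8 heat libraries lay above the control median. Its limma-voom difference was 1.43 ± 0.41 with adjusted p = 0.0490, from 40.6 and 14.9 fragments per library, and the call was lost in 13 of 16 fits without 1 library, with adjusted p up to 0.0971. In the limma fit on log2(FPKM + 0.1) Uhrf1 had 1.29 with adjusted p = 0.0609, past the threshold no longer, and Mcm7 0.72 with adjusted p = 0.0101. Uhrf1 stood just outside the limma limit with a mean of 0.979 FPKM over both groups. Gins2 had 1.20 (adjusted p = 0.111) and Cdc6 1.66 (0.262), with Cdc6 listed at 0 in 1 heat and 3 control libraries. Of the 16 replication genes 14 were positive, with a median of 0.41.

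Among mitosis genes Mki67 was by far the highest in this tissue. It was at 5.29, 8.01 and 15.4 FPKM in heat libraries, against 3.18, 6.17 and 8.76 FPKM in control libraries, overlapping, with a limma difference of 0.53 ± 0.20 and adjusted p = 0.136. Cyclin B2, Ccnb2, was at 0.458, 1.11 and 2.72 FPKM in heat libraries, against 0.0987, 0.566 and 1.92 FPKM in control libraries, with 0.43 ± 0.24 and adjusted p = 0.326 by limma. Aurka, the aurora kinase of the spindle poles, was at 1.04, 1.70 and 2.17 FPKM in heat libraries, against 1.11, 1.91 and 2.85 FPKM in control libraries, with −0.16 ± 0.12 and adjusted p = 0.480 by limma. By limma-voom 0 of 15 tested mitosis genes passed, with 2 at an unadjusted p under 0.05, beside 21.4% of all genes; 12 were positive and the median was 0.62. Ccnb1, Bub1 and Kif11 had a mean under 5 fragments and were not tested; Kif11 was listed at 0 in 3 heat and 7 control libraries. Cdk1 and Ccnb1, which fell in pituitary, averaged 0.322 and 0.106 FPKM in heat mammary libraries, against 0.327 and 0.244 FPKM in control mammary libraries.

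**Figure D2:**
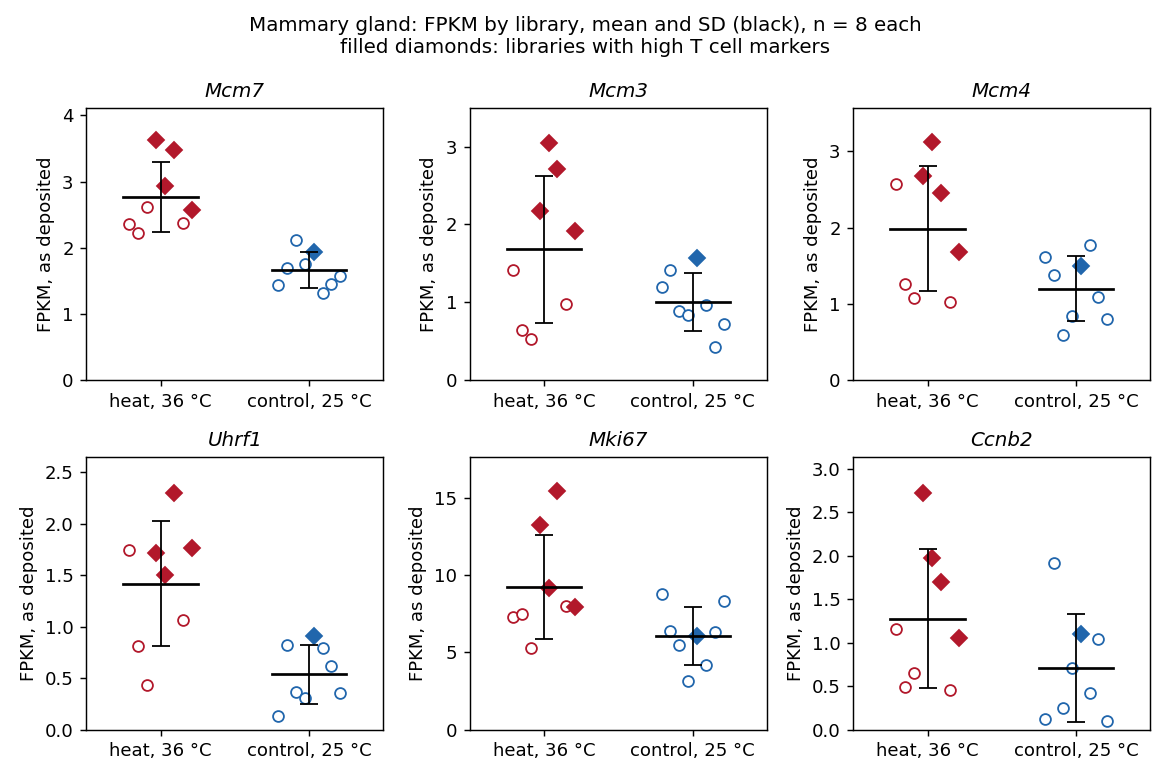
FPKM as deposited of 6 genes in the 8 heat (left, red) and 8 control (right, blue) mammary libraries, with mean and SD in black; filled diamonds are the 4 heat and 1 control libraries with high T cell markers. Mcm7 did not overlap between groups, and the 4 heat diamonds of Mcm3 averaged 2.47 FPKM against 0.895 FPKM for the other 4 heat libraries.

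Among heat mammary libraries most of these genes averaged higher where lymphocyte markers were high. The 10 T cell markers summed to 48.7 to 90.7 FPKM in heat libraries 4, 5, 6 and 8 and to 64.2 FPKM in control library 5, but to 1.35 to 1.79 FPKM in the other 4 heat libraries and 1.37 to 2.64 FPKM in the other 7 control libraries. The 9 B cell markers divided the libraries in the same way, at 42.7 to 68.1 FPKM in the 4 heat libraries and 57.2 FPKM in the control library, against 2.12 to 3.99 and 1.94 to 3.89 FPKM in the others. In the other libraries Cd8a was at 0 in 2 of 4 heat and 4 of 7 control libraries, and Pax5 in 3 of 4 and 4 of 7, while none of the 19 markers was at 0 in the 5 high libraries. Mcm3 averaged 2.47 FPKM in the 4 high heat libraries and 0.895 FPKM in the other 4, and was at 1.57 FPKM in control library 5 against a mean of 0.923 FPKM in the other 7 control libraries. Ccnb2 averaged 1.86 and 0.691 FPKM in the same heat sets, and Cenpf, a kinetochore gene, 0.137 and 0.0422 FPKM. Mcm7 averaged 3.15 and 2.40 FPKM in those heat sets, and 1.94 FPKM in control library 5 and 1.62 FPKM in the other control libraries. Of the 34 genes only Mcm6, Tyms, Cdk1 and Aurka did not average higher in the high heat libraries, and all the others did. Mcm6 averaged 2.11 and 2.15 FPKM in the high and other heat sets, Tyms 1.13 and 1.20, Cdk1 0.283 and 0.361 and Aurka 1.61 and 1.64. Mki67 averaged 11.5 and 7.03 FPKM in these heat sets. It was at 6.05 FPKM in control library 5, against a mean of 6.10 FPKM in the other control libraries.

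Without the 5 libraries no gene of the 34 passed, and fewer genes did in the whole table. Limma then called 0.392% of 12256 genes in either direction, against 5.31% with all 16 libraries, and limma-voom 0.309% of 14243, against 4.76%. Among the 4 heat and 7 control libraries left, Mcm7 ranged over 2.22 to 2.62 FPKM in heat and 1.32 to 2.11 FPKM in control, still without overlap, and its limma difference was 0.38 with adjusted p = 0.189. By limma-voom Mcm7 had 0.58 (adjusted p = 0.173), Uhrf1 1.01 (0.486), Mki67 0.27 (0.763) and Mcm3 −0.07 (0.968). With a lymphocyte score as a term in all 16 libraries the limma difference of Mcm7 was 0.41 with adjusted p = 0.0208, that of Mki67 0.35 (0.393) and that of Mcm3 0.08 (0.845), where 1.53% of all genes were called higher and 1.01% lower. Within numbers 1 to 3, which hold none of the 5 libraries, the unadjusted difference in mean log2(FPKM + 1) was 0.31 for Mcm7, −0.03 for Mki67 and −0.24 for Mcm3. Within numbers 4 to 8 it was 0.61, 0.84 and 0.72. By this measure 10 of 16 replication genes and 6 of 18 mitosis genes were higher in heat among numbers 1 to 3. Among numbers 4 to 8 there were 14 and 13. Higher in both sets were 10 replication and 5 mitosis genes, where 28.2% of 14585 genes were.

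In hypothalamus none of the 34 genes passed, though most had lower means in heat libraries. Means were lower in heat for 15 of 16 replication genes and 15 of 18 mitosis genes. By limma-voom 13 of 16 tested replication genes and 10 of 13 tested mitosis genes were negative, beside 50.4% of all genes. The medians were −0.17 and −0.24, beside −0.001 over all genes. With limma 0 of 6 replication genes and 0 of 1 mitosis gene were called, none at an unadjusted p under 0.05 either, beside 0.559% of all genes higher, 0.122% lower and 0.681% in either direction. Nor was any of these 7 without overlap, against 0.351% of all genes higher and 0.107% lower. The smallest adjusted p was that of Mcm6 (−0.13, 0.879), and Mcm4, Rrm1 and the polo kinase gene Plk1 had −0.03, −0.02 and −0.17 with 0.999. By limma-voom 0 of 16 replication genes and 0 of 13 mitosis genes were called, beside 0.406% of all genes called higher, 0.104% lower and 0.511% in either direction. At an unadjusted p under 0.05 there were 3 of these 29 genes, Mcm2, Mcm3 and Cdc20, a share close to the 8.68% of all genes. Mcm2 was at 0.362, 0.459 and 0.616 FPKM in heat libraries, against 0.582, 0.655 and 0.798 FPKM in control libraries, with −0.51 ± 0.12 and adjusted p = 0.0745 by limma-voom. Mcm3 was at 0.329, 0.401 and 0.524 FPKM in heat libraries, against 0.449, 0.609 and 0.787 FPKM in control libraries, with −0.52 ± 0.14 and adjusted p = 0.122. All 8 heat libraries lay below the control median in both genes, and the ranges overlapped. With the term for numbers 1 to 3 against 4 to 8, limma-voom called Mcm2 (−0.50, adjusted p = 0.0230) and Mcm3 (−0.52, 0.0419), where 1.93% of all genes were called higher and 0.724% lower. The 4 oligodendrocyte precursor markers, none at 0 in any library, summed to 22.8 to 33.9 FPKM in heat libraries and 30.4 to 36.3 FPKM in control libraries; their part in these values was not tested. Control replicate 2 had the highest hypothalamic level of Mki67, at 0.284 FPKM, where the control median was 0.0544 FPKM.

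**Figure D3:**
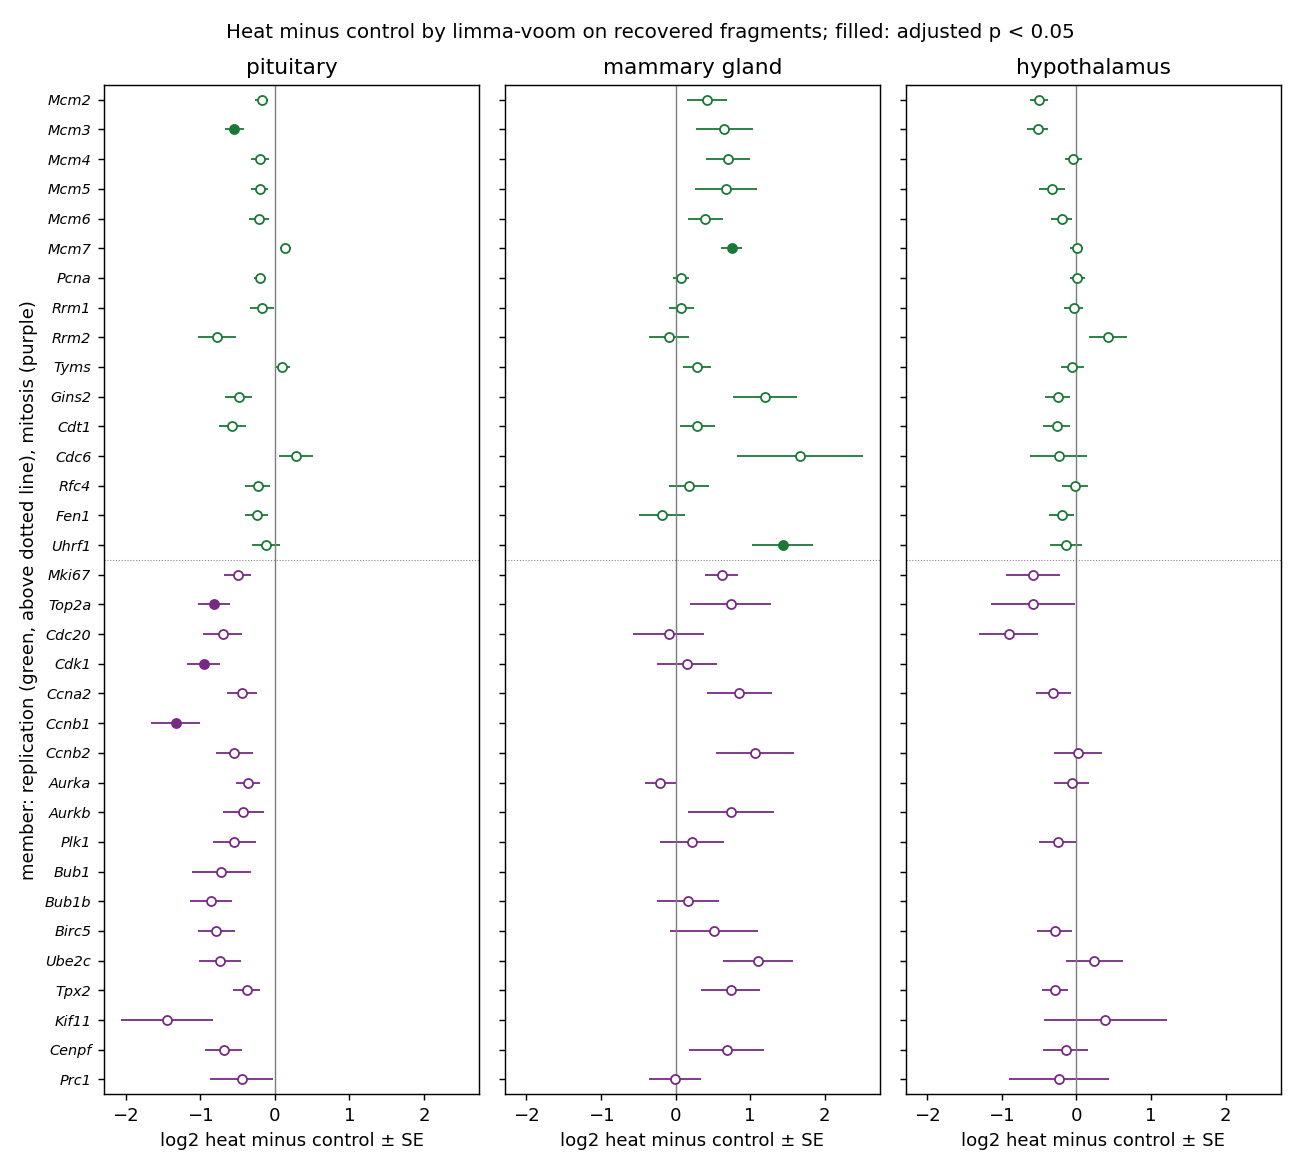
Log2 difference of heat minus control with its SE by limma-voom for the 16 replication (green) and 18 mitosis (purple) genes in pituitary, mammary gland and hypothalamus; filled points have adjusted p under 0.05 and genes under 5 mean fragments are not drawn. All 18 mitosis genes are negative in pituitary, 12 of 15 are positive in mammary gland and 10 of 13 are negative in hypothalamus.

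Whether heat differed between mammary gland and pituitary was tested as an interaction over all 48 libraries. The fit treated them as independent, because the labels used here do not tie libraries of different tissues to a dam. Of 14884 genes 0.981% were called higher, 1.25% lower and 2.23% in either direction, and of the 13 genes described here that entered 3 were called, all more positive in mammary gland. The mammary minus pituitary difference of the heat effects was 0.67 ± 0.18 for Mcm3 (adjusted p = 0.0343), 0.40 ± 0.10 for Mcm7 (0.0137) and 0.66 ± 0.18 for Mki67 (0.0369), by limma on log2(FPKM + 1). With the library numbers as a block Mki67 was not called (adjusted p = 0.0686), and with no filter on low values neither was Mki67 (0.0578) nor Mcm3 (0.0532). In a fit of the pituitary and mammary libraries alone the adjusted p were 0.149, 0.0594 and 0.152. That fit called 58 of 14259 genes higher and 59 lower. Without the 5 mammary libraries of high T cell markers the differences were 0.28 for Mcm7 (0.159) and 0.37 for Mki67 (0.384), and Mcm3 did not reach the FPKM limit. Of 14847 genes 79 were called higher there and 75 lower. The effects in each tissue had opposite signs for Mcm3 and the same sign for Mcm7.

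Control means were highest in pituitary for 10 of 16 replication and 13 of 18 mitosis genes, in mammary gland for 6 and 3, and in hypothalamus for 0 and 2. These levels and the tissue differences below used FPKM as deposited, whose scaling differed between tissues as given above. Of the genes tested between control libraries with limma, mammary minus pituitary differences were called higher for 2 and lower for 7 of 10 replication genes, where 36.4% and 43.4% of all genes were (79.9% in either direction). Mcm2 was at 0.839 ± 0.361 FPKM in mammary gland and 3.83 ± 0.489 FPKM in pituitary (SD, n = 8 each), a difference of −1.41, and Mcm7 at 1.66 ± 0.270 and 4.51 ± 0.408 FPKM, a difference of −1.05. Pcna ran the other way, at 14.8 ± 1.53 FPKM in mammary gland and 9.44 ± 0.603 FPKM in pituitary, a difference of 0.60. Pituitary minus hypothalamus differences were called higher for 9 of 10 replication genes and lower for 0, where 31.9% and 39.7% of all genes were (71.5% in either direction). Mammary minus hypothalamus differences were called higher for 4 and lower for 3 of these 10, where 37.8% and 45.3% of all genes were (83% in either direction).

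Mki67 was at 6.09 ± 1.89 FPKM in control mammary gland, 0.569 ± 0.0702 FPKM in control pituitary and 0.0849 ± 0.0815 FPKM in control hypothalamus (SD, n = 8 each). Its mammary minus pituitary difference was 2.13 ± 0.13 on the log2(FPKM + 1) scale. Top2a, another marker of dividing cells, was at 0.450, 0.579 and 0.0935 FPKM in these tissues, so that the ratio of Mki67 to Top2a was 13.5 in mammary gland, 0.982 in pituitary and 0.908 in hypothalamus. Plk1 was highest in control hypothalamus, at 2.67 ± 0.982 FPKM, against 0.868 ± 0.142 FPKM in control pituitary and 0.512 ± 0.359 FPKM in control mammary gland.

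**Figure D4:**
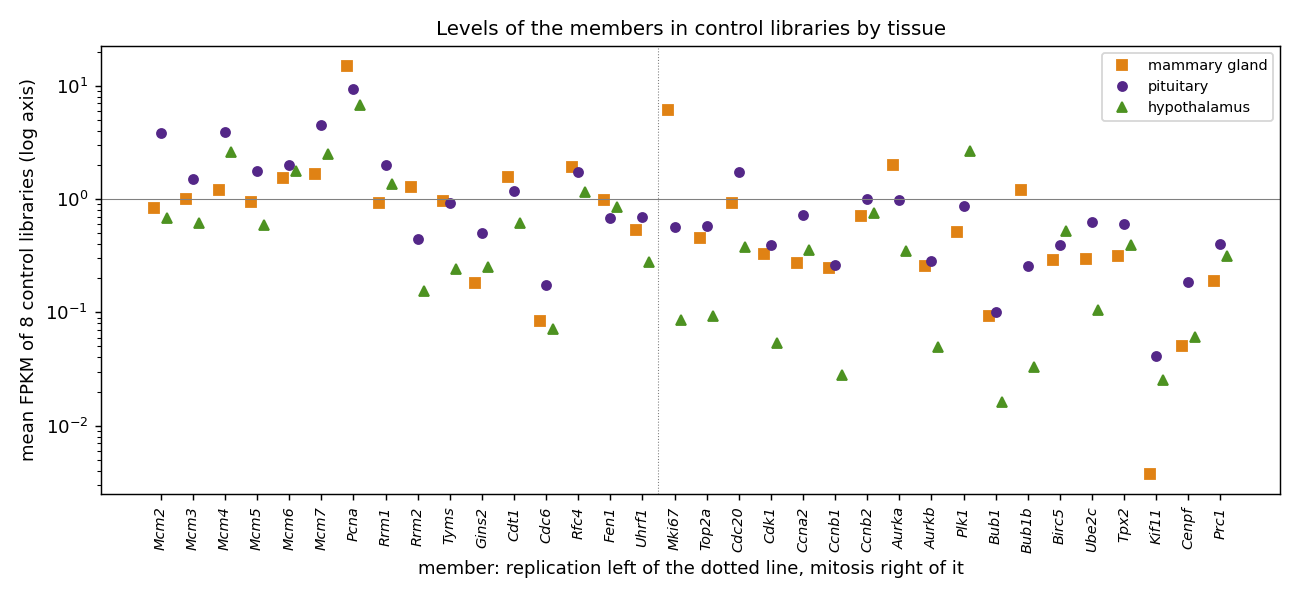
Mean FPKM of the 8 control libraries for each gene in mammary gland (squares), pituitary (circles) and hypothalamus (triangles), on a log axis with a line at 1 FPKM; replication genes are left of the dotted line. Pcna is the highest replication gene in all 3 tissues, Mki67 the highest mitosis gene in mammary gland and Plk1 in hypothalamus.

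Other cell cycle genes, from lists chosen by function with earlier results of these data known, gave few calls. In pituitary 0 rose and 1 fell of 32 other replication genes tested, 0 rose and 1 fell of 15 other mitosis genes, 0 and 0 of 14 genes of the G1 cyclins, kinases and E2F factors, and 0 and 1 of 19 inhibitors. The medians were −0.06, −0.12, 0.008 and 0.04, beside 0.005 over all genes. Of all genes tested with limma in pituitary 2.37% were called higher and 1.42% lower. The fallen genes were Tipin, which protects stalled forks (3.29 ± 0.846 FPKM in heat and 5.80 ± 0.968 FPKM in control; −0.67, adjusted p = 0.00838), the centromere gene Cenpm (−0.37, 0.0300) and the CDK4/6 inhibitor gene Cdkn2c (−0.34, 0.0217), all by limma with n = 8 each. By limma-voom, 52 of 59 tested other mitosis genes and 36 of 48 other replication genes were negative in pituitary, with medians of −0.52 and −0.13. Of these 2 and 3 were called, all lower. Over all genes 50.7% were negative, 1.6% were called higher and 1.06% lower.

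In mammary gland 0 rose and 1 fell of 27 other replication genes tested, 0 and 1 of 13 other mitosis genes, 1 and 0 of 14 G1 genes and 1 and 1 of 16 inhibitors. Tipin fell there too (1.06 ± 0.422 FPKM in heat and 2.39 ± 0.855 FPKM in control; −0.70, adjusted p = 0.0271), as did the spindle gene Ckap2l (−0.74, 0.00516). Wee1, the kinase that holds Cdk1 inactive, rose to 20.1 ± 7.86 FPKM in heat, against 9.65 ± 3.52 FPKM in control (0.97, 0.0164), and the G1 kinase Cdk6 rose (0.53, 0.0436). Fzr1, the G1 activator of the anaphase-promoting complex, fell (−0.38, 0.0132). These are limma values with n = 8 each, where limma called 2.84% of all genes higher and 2.47% lower. By limma-voom 23 of 47 other replication genes and 28 of 40 other mitosis genes were positive, with medians of −0.004 and 0.27. Of these 0 and 1 were called, where limma-voom called 2.7% of all genes higher and 2.06% lower. In hypothalamus 0 genes of the 4 lists were called by limma or limma-voom, beside 0.681% and 0.511% of all genes in either direction.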

How the data were processed

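RNA-seq of 48 libraries was deposited as FPKM per gene. The authors used HISAT2 2.0.5, featureCounts 1.5.0-p3 and DESeq2 1.16.1 and build mm9, as listed per the submitters' processing notes; the strand setting is not given in the sources used here. FPKM values were rescaled within each tissue by the median ratio to the geometric mean and tested as log2(FPKM + 1) with limma 3.58.1 (R 4.3.3) over genes with a mean of at least 1 FPKM, adjusted by Benjamini-Hochberg, calls being made under 0.05. In the main fits, tissue differences and interactions used all 48 libraries with no term for the dam. Dividing out GENCODE M21 exon lengths gave whole fragments (tolerance 0.02) for 94.7 to 96.9% of the values below 50 fragments in each library, and limma-voom was run on these fragments for genes with a mean of at least 5. A further limma fit used log2(FPKM + 0.1) over genes with a mean of at least 0.1 FPKM. Levels in the text are FPKM as deposited. The scripts were tested on simulated data. The genes, lists and alternatives were chosen with earlier results of these data known. All 34 genes are accounted for in each tissue; full statistics go to genes past the threshold in pituitary or mammary gland and, where none passed, to the 3 of smallest adjusted p per tissue and group. Other lists are given by counts and by genes past the threshold, at most 4 per tissue and direction.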

Additional observations from a re-analysis of the deposited data

Results flagged for a closer look

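Within groups of 8, a highest or lowest library was set apart by Dixon's test in 29 of 212 groups of values, where chance gives about 5%. Levels are in FPKM, and 1 library often accounts for several of them. In pituitary, heat replicate 8 was high for Gins2 (0.631), Uhrf1 (1.06), Aurkb (0.603) and Ube2c (1.13), heat replicate 1 for Fen1 (0.866) and heat replicate 3 for Kif11 (0.139). Control replicate 4 was high there for Cdt1 (1.65) and Tpx2 (0.860), control replicate 5 for Rrm2 (0.726) and control replicate 2 for Kif11 (0.0927).

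In mammary gland, heat replicate 5 was high for Ccna2 (0.925) and heat replicate 8 for Ccnb1 (0.280). Control replicate 2 was high for Tpx2 (0.941) and control replicate 7 for Kif11 (0.0302), which was at 0 in the other 7 control libraries. Control replicate 5 was high for Cenpf (0.109) and for the summed T cell (64.2) and B cell (57.2) markers.

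In hypothalamus, heat replicate 2 was high for Mki67 (0.0976) and Aurkb (0.119), heat replicate 7 for Bub1 (0.0362) and heat replicate 1 for Cenpf (0.0934). Control replicate 2 was high for 7 of the genes, namely Tyms (0.298), Mki67 (0.284), Top2a (0.363), Cdk1 (0.166), Aurkb (0.185), Bub1 (0.0834) and Bub1b (0.127), and control replicate 4 for Gins2 (0.391).

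The effect of heat differed between mammary gland and pituitary by limma's interaction test over all 48 libraries for Mcm3 (0.67), Mcm7 (0.40) and Mki67 (0.66), as log2 mammary minus pituitary. With pituitary and mammary libraries only, limma called none of them (adjusted p = 0.149, 0.0594 and 0.152). Nor was any called without the 5 mammary libraries of high T cell markers, where Mcm3 was not tested.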

How the results depend on the processing

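Counts of called genes were small and moved with the processing; the cause was not tested except where fewer genes or libraries entered. Limma on log2(FPKM + 0.1) over genes with a mean of at least 0.1 FPKM called 0 mitosis genes in pituitary and left Uhrf1 uncalled in mammary gland. The share of all genes called in either direction moved as well. In pituitary it was 3.79% with limma, 1.01% with no filter on low values, 3.22% at 5 FPKM and 0% in numbers 1 to 3 only. It was 9.92% with array weights and 12.2% with the term for numbers 1 to 3 against 4 to 8. By limma-voom it was 2.65%, 9.19% with that term and 3.35% with the lobe score. Without control replicate 1 and heat replicate 3 it was 3.3%. Replication genes called in pituitary were 1 with limma, 0 with no filter on low values, 0 with a mean of at least 5 FPKM, 0 in numbers 1 to 3 only, 0 in 1 fit of all 48 libraries, 2 with array weights, 2 with a term for numbers 1 to 3 against 4 to 8, 2 with limma-voom and the lobe score, and 0 to 2 without 1 library. Mitosis genes called there were 0 with limma, 1 with array weights, 3 with limma-voom, 3 with limma-voom and the term for numbers, 4 with limma-voom without control replicate 1 and heat replicate 3, 1 with limma-voom and the lobe score, and 0 to 4 without 1 library. In mammary gland replication calls were 1 with limma, 0 at 5 FPKM, 0 in numbers 1 to 3 only, 0 without the 5 libraries of high T cell markers by both tests, 2 with limma-voom, 2 with limma-voom and the term for numbers, 2 in numbers 4 to 8 only, 2 in the fit of 48 libraries, and 1 to 3 without 1 library. Mitosis calls there were 0, and 1 (Mki67) in the fit of 48 libraries. Of all mammary genes limma called 5.31% in either direction, 5.57% at 5 FPKM and 2.83% in numbers 4 to 8 only. Limma-voom called 4.76%, and 7.82% with the term for numbers. The fit of 48 libraries called 972 of 14884 genes higher and 1070 lower in mammary gland, and 297 and 272 in pituitary. Hypothalamus had 0 calls, 2 with limma-voom and the term for numbers, and 0 to 1 without 1 library. Of all hypothalamus genes limma-voom called 0.511% in either direction, and 2.66% with that term. The 3 interaction calls became 0 with pituitary and mammary libraries only, where 58 of 14259 genes were called higher and 59 lower. They became 0 without the 5 libraries, where 79 of 14847 genes were called higher and 75 lower. They became 1 with a pseudocount of 0.1 and 5 with the term for numbers. With the replicate block Mcm3, Mcm4 and Mcm7 were called, and with no filter Mcm7, Gins2, Uhrf1 and Ube2c. The main interaction fit called 146 of 14884 genes higher and 186 lower, against 437 and 526 with the term for numbers. With the replicate block 444 and 538 were called, and with a pseudocount of 0.1 117 and 129. No filter gave 264 and 191 of 43531. Signs changed for Mki67 in mammary gland (−0.0246 in numbers 1 to 3 only) and Plk1 in hypothalamus (0.0220 in numbers 1 to 3 only). In hypothalamus Mcm4 had 0.0260 with array weights and −0.0635 to 0.00986 without 1 library. By limma-voom Mcm4 had 0.0171 without heat replicate 6 and 0.00599 without control replicate 2. Rrm1 in hypothalamus had 0.00457 with array weights and −0.0585 to 0.0125 without 1 library. By limma-voom Rrm1 had 0.0137 without control replicate 1 and 0.0196 without control replicate 2. None of these was past the threshold. Mcm3 in mammary gland had 0.37 with limma, but a difference in mean log2(FPKM + 1) of −0.24 in numbers 1 to 3 only. Mcm3 was also negative in mammary gland by limma-voom without the 5 libraries of high T cell markers. Same-numbered libraries were not shown to be paired: their deviations correlated at −0.02 to 0.50 in pituitary, −0.10 to 0.34 in mammary gland and 0.065 to 0.70 in hypothalamus, and 1 of 8 numbers in each correlated best with its own. With the replicate block, limma called 1 replication gene in pituitary, 1 in mammary gland and 0 in hypothalamus, and 0 mitosis genes. Limma-voom with that block called 4 mitosis genes in pituitary and 2 replication genes in mammary gland. Of all genes limma with the block called 8.61% in pituitary, 5.04% in mammary gland and 2.01% in hypothalamus. Limma-voom with it called 7.8% in pituitary and 7.52% in mammary gland.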
